A study of Bos taurus and Sus scrofa with 6 samples.

Results

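Cells labelled TEX101-positive early meiotic germ cells numbered 175 of 9457 called cells of prepubertal pig testis, among 27966 called cells from pigs and cattle. They were chosen by their own UMI counts: at least 2 UMIs of TEX101 and a UMI in at least 1 of 10 germ cell genes (DDX4, DAZL, MAEL, TDRD1, TDRD9, RNF17, MOV10L1, SMC1B, SYCP1, SYCP3). A UMI is a unique molecular identifier, which counts each captured RNA molecule once, and a cell was called when its barcode held at least 696, 2444 and 3457 UMIs in pigs 1, 2 and 3. DAZL is not in the pig gene table under that symbol and was not analysed here, so 9 of the 10 germ genes were read.

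The study profiled testes of prepubertal animals, collected by castration, to find genes used by germ cells. The pigs were 3 males of mixed breed aged 3 months, and the labels name neither a treatment nor a genotype for them. Total testicular cells were loaded with no sort, about 8000 live cells per animal and 1 library per animal, and the 3 Holstein cattle of the series, aged 4.5 months, enter here only for a count. The members came from all 3 pigs, with 43 of 3248 called cells in pig 1 (1.32%, exact 95% binomial interval 0.960 to 1.78), 11 of 3932 in pig 2 (0.280%, 0.140 to 0.50) and 121 of 2277 in pig 3 (5.31%, 4.43 to 6.32). The mean share was 2.31% ± 2.66 (SD, n = 3 pigs), and the intervals cover counting error only. Pig 3 thus gave most of the members and pig 2 the fewest. No barcode was a member in more than 1 library, but 1 member of pig 1 and 1 of pig 3 had a barcode that was also called in another pig, and 20, 9 and 9 called barcodes were shared by the library pairs 1 and 2, 1 and 3, and 2 and 3.

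Meiosis begins when a differentiating spermatogonium replicates its DNA a last time and enters prophase I. Chromosomes are then organized on a protein axis, DNA breaks are made and repaired from the homologous chromosome, and the synaptonemal complex joins the homologues along their length. TEX101 and its relatives LY6K and LYPD4 belong to the LY6/uPAR family of proteins anchored to the cell surface by a lipid, and TEX101 serves in germ cells as a surface marker that is needed for the maturation of sperm proteins. SMC1B is a cohesin subunit specific to meiosis, SYCP3 a part of the chromosome axis and SYCP1 the transverse filament of the synaptonemal complex.

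By the values that chose them, the members held 2 to 62 TEX101 UMIs each, with a median of 5. TEX101 (ENSSSCG00000003052) lies on chromosome 6 of Sscrofa11.1 at 50271730 to 50274745 on the plus strand. Its summed level was 2339, 205 and 943 CPM (UMIs of the gene per 1000000 UMIs of the summed cells) in the members of pigs 1, 2 and 3, and 0 in the cells they were compared with, by choice. Just inside the threshold, 52 members held exactly 2 TEX101 UMIs, 9 in pig 1, 6 in pig 2 and 37 in pig 3. Just outside it, 46, 18 and 105 called cells held 1 TEX101 UMI and a germ gene UMI, and 10, 0 and 3 held at least 2 TEX101 UMIs and no germ gene UMI. Of the members, 167 had a UMI of SMC1B, SYCP1 or SYCP3, and 31 had a UMI in only 1 of the germ genes. Among the markers of the label, 129 members had an SMC1B UMI and 71 an SYCP3 UMI, which the choice itself favours. LY6K was the marker that the choice did not use, and 157 members had a UMI of it.

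Members' UMIs were summed per pig and compared with 2 other groups of called cells from the same pigs. TEX101-negative germ cells were 49, 140 and 267 cells with no TEX101 UMI and a UMI in at least 2 of the 7 germ genes that are not SMC1B, SYCP1 or SYCP3. The choice of members asked for less, as SMC1B, SYCP1 or SYCP3 alone sufficed, and 7, 6 and 50 members met the demand set for the reference. The other group was 2665, 3452 and 1267 cells with no UMI of TEX101 or any germ gene, mostly somatic. The members' sums held 106451, 195305 and 1294948 UMIs, so that pig 2 rested on 11 cells. Their median UMIs per cell were 2318, 14563 and 8990, against 4199, 16323.5 and 18969 in TEX101-negative germ cells.

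Against TEX101-negative germ cells, genes called higher in the members included LY6K, LYPD4 and DPEP3 at the cell surface, HORMAD1 and SYCE3 of the chromosome axis and synaptonemal complex, 4 recombination genes led by RAD51AP2 and DMC1, and STRA8, MEIOC and YTHDC2 of meiotic entry. UCHL1 and ZBTB16 of spermatogonia were called lower. Over 13105 genes, 117 were higher (0.893% of genes tested) and 33 lower (0.252%) at a Benjamini-Hochberg adjusted p under 0.05 in the quasi-likelihood test of edgeR, 150 in all (1.14%). The libraries of the groups did not overlap at 1026 genes with the members above (7.83%) and at 1025 genes with the members below (7.82%). At an unadjusted p under 0.05 edgeR had 651 higher (4.97%) and 745 lower (5.68%), and DESeq2 called 120 higher (1.45%) and 24 lower (0.290%) of the 8271 genes it tested. With the pig as a replicate block, 386 genes were higher (2.95%) and 419 lower (3.20%), and all 150 genes were among them. The counts in each gene list are read against these shares of all genes. The counts rested on pigs 1 and 3: without pig 1 the same edgeR test called 1 gene higher and 0 lower, with 868 genes at an unadjusted p under 0.05, without pig 3 it called 0 genes, with 401 at an unadjusted p under 0.05, and without pig 2 it called 247 higher and 120 lower. With members held to the demand set for the reference, 114 genes were higher and 29 lower, of which 83 and 19 were among the 117 and 33. The median log2 fold change of all genes was -0.11, and scaling by library size alone moved it to 0.01, so list medians are read against it. A gene that varies with TEX101, SMC1B, SYCP1 or SYCP3 from cell to cell can differ by the choice of cells alone. The 10 genes of the choice that were measured were not tested.

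Among the LY6 and surface genes, 3 of 14 tested were higher and 0 lower. These were LY6K, LYPD4 and DPEP3, a dipeptidase bound to TEX101 on testicular germ cells. DESeq2 also called 3 higher and 0 lower, at an unadjusted p under 0.05 edgeR had 4 higher and 1 lower, and the median log2 fold change of the list was 0.53. LY6K (ENSSSCG00000033594, chromosome 4, 1391736 to 1436059, plus strand) stood at 3279, 261 and 1369 CPM in the members of pigs 1, 2 and 3, and at 54.2, 28.4 and 45.1 in TEX101-negative germ cells. Every member sum lay above every TEX101-negative sum, and pig 2 was the lowest of the members. The log2 fold change was 5.16 ± 0.60 (SE, adjusted p = 1.4e-05, higher in 3 of 3 pigs). LYPD4 (ENSSSCG00000003044) lies on chromosome 6 at 50010272 to 50023571, on the same chromosome as TEX101, and its levels were 789, 87.0 and 482 CPM against 45.2, 32.2 and 18.3. The groups did not overlap, at a log2 fold change of 3.85 ± 0.55 (SE, adjusted p = 2.3e-04 in edgeR). DPEP3 was sparse, at 28.2, 10.2 and 19.3 against 0, 0.859 and 1.99 CPM, with a log2 fold change of 3.45. LYPD6, another member of the family, was at 0, 0 and 2.32 CPM against 18.1, 9.02 and 7.24, a log2 fold change of -2.45 that did not pass the test (adjusted p = 0.33 in edgeR).

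**Figure D1:**
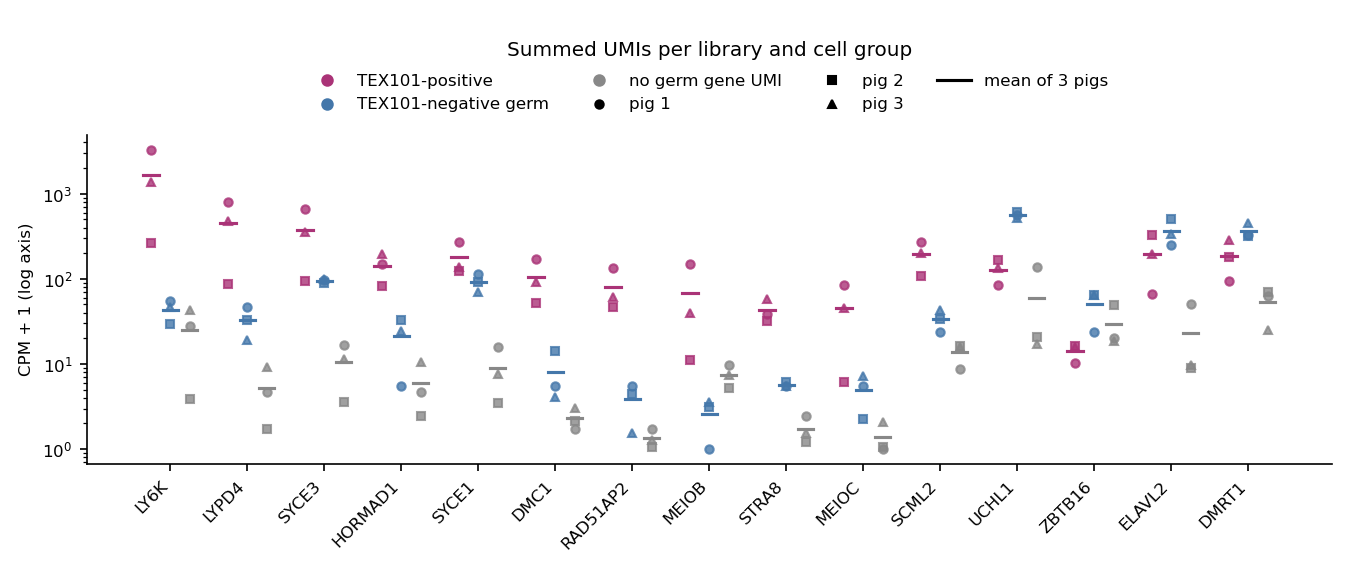
Summed CPM plus 1 (log axis) of 15 genes in the members, the TEX101-negative germ cells and the cells without germ gene UMIs, 1 point per pig and a bar at the mean of 3 pigs. LY6K, LYPD4, DMC1 and RAD51AP2 are above both other groups in every pig, and UCHL1 and ZBTB16 lie below the TEX101-negative germ cells.

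LY6K was also seen in most single members. A UMI of LY6K was present in 88.4%, 100% and 89.3% of the members of pigs 1, 2 and 3. When each cell was thinned to 1500 UMIs, which left out 8 members of pig 1, the shares were 82.9%, 18.2% and 63.6%, against 2.13%, 3.57% and 6.74% in TEX101-negative germ cells. Cells without germ gene UMIs had 5.53%, 0.406% and 6.79% at the same depth, but in pig 1 this left out 2448 shallower cells, and 33.2% of the 217 kept had a UMI of the spermatogonial gene UCHL1. Cells with Sertoli cell markers, a somatic type, had LY6K at 55.4, 5.04 and 56.3 CPM as a sum. The members had 3279, 261 and 1369, and TEX101-negative germ cells 54.2, 28.4 and 45.1. The Sertoli sums were thus not below that reference in pigs 1 and 3. In pig 3, cells with Leydig, myoid and stromal, and macrophage markers had 134, 177 and 131 CPM. These sums held 2, 9 and 7 members. Cells with lymphocyte and endothelial markers there had 37.8 and 39.7. In pig 1 the Leydig sum, with 3 members, was also above the Sertoli sum. The source of LY6K RNA in the somatic sums was not tested. The thinned share in pig 2 was 2 of 11 cells, with an exact 95% interval of 2.28% to 51.8%. At that depth SYCE3, LYPD4 and DMC1 were in 0 of the 11 members of pig 2, which allows a share of up to 28.5% in an exact 95% interval, against 12.9%, 2.14% and 2.86% of TEX101-negative germ cells there, while in pig 3 they were in 39.7%, 38.8% and 18.2% of members against 11.985%, 3.37% and 0%. LY6K UMIs per member ran from 0 to 88 with a median of 5.

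**Figure D2:**
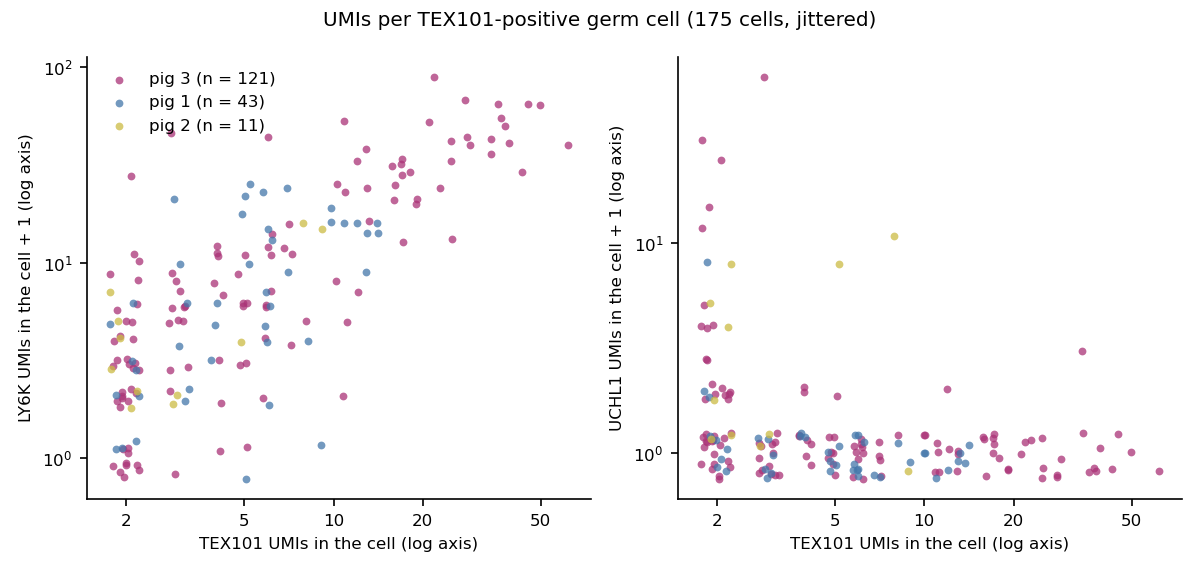
UMIs of LY6K (left) and UCHL1 (right), plus 1, against TEX101 UMIs in each of the 175 members on log axes, coloured by pig and jittered. Members with at least 12 TEX101 UMIs carry LY6K UMIs, and nearly all of them sit at the level of no UCHL1 UMI.

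Of the genes of the synaptonemal complex and the chromosome axis, 2 of 6 tested were higher and 0 lower, against 0.893% and 0.252% of all genes. All 6 had a positive log2 fold change and an unadjusted p under 0.05 in edgeR, and the median was 1.66. DESeq2 called 3 higher and 0 lower, and the fit with the replicate block called 5 higher. A cell could become a member through SYCP1 or SYCP3 alone, but not enter the reference that way. The choice can thus favour genes used together with them, and its part in this list was not tested. HORMAD1, an axis protein that recruits the recombination machinery, stood at 150, 81.9 and 195 CPM in the members and at 4.52, 32.2 and 23.5 in TEX101-negative germ cells. The groups did not overlap, and the log2 fold change was 2.50 ± 0.44 (SE, adjusted p = 0.0037 in edgeR). SYCE3, a central element protein of the synaptonemal complex, was at 667, 92.2 and 356 against 94.9, 88.9 and 97.3 CPM. Pig 2 overlapped with the reference there, and the log2 fold change was 1.81 ± 0.45 (adjusted p = 0.043 in edgeR, higher in 3 of 3 pigs). With members held to the 2 germ genes asked of the reference it was 1.30 and not called. SYCE1, SYCE2, SYCP2 and TEX12 had log2 fold changes of 0.78, 3.26, 1.5 and 1.28 with adjusted p-values of 0.47, 0.094, 0.098 and 0.10 in edgeR, and SYCE2, SYCP2 and TEX12 were called with the replicate block, at 2.27, 1.45 and 1.21. The summed level of the list was 1475, 492 and 1055 CPM in the members, and its mean was 1007 ± 493 against 309 ± 13.2 (SD, n = 3).

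For the cohesins and their protectors, 1 of 9 tested was higher and 0 lower, with 2 higher and 2 lower at an unadjusted p under 0.05, and the median of -0.10 was close to that of all genes. DESeq2 gave the same counts of 1 and 0, and the replicate block 1 higher and 2 lower. SGO2, the shugoshin that protects cohesin at meiotic centromeres, was at 197, 108 and 158 CPM against 45.2, 52.4 and 47.8, without overlap. Its log2 fold change was 1.49 ± 0.37 (adjusted p = 0.043 in edgeR). SGO2 was not called with cells limited to the members' UMI range, the 10th to 90th percentile of UMIs per member in each pig. That range kept 33, 9 and 97 members and 14, 103 and 143 TEX101-negative germ cells. It does not match depth, and a call lost with fewer cells does not show a smaller change. The meiotic cohesins STAG3 and REC8 had log2 fold changes of 1.83 and 1.17 with adjusted p-values of 0.31 and 0.48, and RAD21, the mitotic kleisin, had -1.19 (adjusted p = 0.21 in edgeR), which was called with the replicate block at -1.30. RAD21L1, a meiotic kleisin, was too sparse to test, with 6 UMIs in the members and 2 in TEX101-negative germ cells.

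Recombination genes were the largest list, and 4 of 23 tested were higher and 0 lower, with 10 higher and 0 lower at an unadjusted p under 0.05. DESeq2 also called 4 and 0, the replicate block 8 and 0, and the median was 0.86. DMC1, the recombinase that searches for the homologous chromosome, stood at 169, 51.2 and 90.4 CPM in the members and at 4.52, 13.3 and 3.08 in TEX101-negative germ cells. All 3 member sums were above all 3 reference sums, at a log2 fold change of 3.62 ± 0.55 (SE, adjusted p = 5.9e-04 in edgeR). RAD51AP2 was at 132, 46.1 and 59.5 against 4.52, 3.44 and 0.543 CPM, and its log2 fold change was 5.16 ± 0.65 (adjusted p = 4.5e-05 in edgeR). MEIOB and SPATA22, which act together on single-stranded DNA at breaks, had log2 fold changes of 4.39 ± 0.72 and 1.72 ± 0.41 (adjusted p = 0.0016 and 0.034 in edgeR). MEIOB was at 150, 10.2 and 38.6 CPM against 0, 2.15 and 2.54, above the reference in every pig. The value of pig 2 was 2 UMIs. Cells without germ gene UMIs had more MEIOB than that reference, at 8.79, 4.20 and 6.48 CPM, and the log2 fold change against them was 2.61. SPATA22 was at 169, 61.4 and 151 against 27.1, 33.5 and 40.4 in TEX101-negative germ cells. SPO11, which cuts the DNA, was at 0, 25.6 and 24.7 against 9.04, 7.30 and 3.98 and did not pass the test (log2 fold change 1.71, adjusted p = 0.31 in edgeR), though it was called with the replicate block at 1.97. PRDM9, which places the breaks, was not analysed here.

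Meiotic entry genes gave 3 higher of 9 tested and 0 lower, with 3 and 1 at an unadjusted p under 0.05 and 3 and 0 in DESeq2. STRA8, the factor induced by retinoic acid that starts the meiotic programme, stood at 37.6, 30.7 and 57.2 CPM in the members and at 4.52, 5.16 and 4.53 in TEX101-negative germ cells. The groups were apart in every pig, and the log2 fold change was 3.11 ± 0.53 (SE, adjusted p = 0.0026 in edgeR). MEIOC and YTHDC2, which work as a complex on RNA to hold the meiotic state, had log2 fold changes of 3.14 ± 0.69 and 1.88 ± 0.45 (adjusted p = 0.018 and 0.034 in edgeR). MEIOC was uneven, at 84.5, 5.12 and 44.0 against 4.52, 1.29 and 6.16 CPM, so that pig 2 overlapped with the reference. The call of YTHDC2 was lost when doublets or cells with somatic markers were left out, and with members held to the 2 germ genes asked of the reference (log2 fold change 1.22). With the replicate block 1 listed gene of meiotic entry was also lower. MEIOSIN, the partner of STRA8, was not analysed here.

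**Figure D3:**
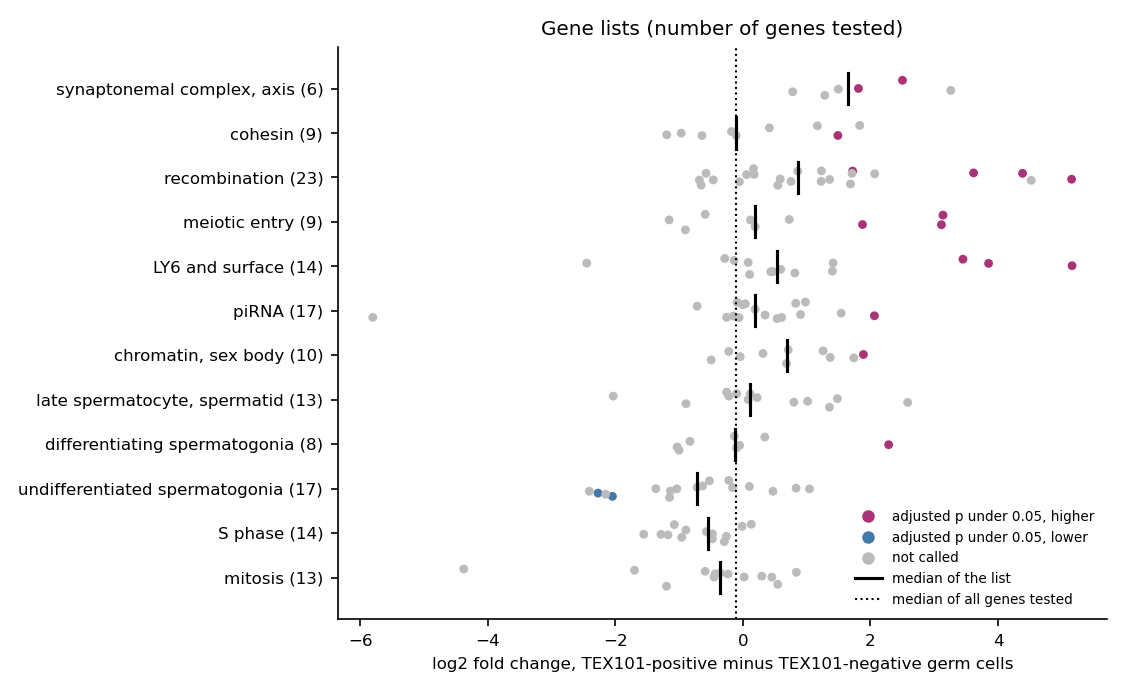
Log2 fold change of each tested gene of 12 lists, members minus TEX101-negative germ cells, with called genes in colour, the list median as a bar and the median of all 13105 genes (-0.11) as a dotted line. All 6 genes of the synaptonemal list are above 0, and UCHL1 and ZBTB16 are the called genes of the undifferentiated spermatogonia list.

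The bases before the annotated starts of these genes were searched, on both strands, for CNCCTCAG, the sequence known from mouse as the motif at sites bound by STRA8 and MEIOSIN. Of the 20 genes that chose the members or were listed meiosis genes called higher, and that had a unique RefSeq start in Sscrofa11.1, 4 held it within 250 bases before the start. They are shown because they are the genes of the choice or of the meiosis lists with the motif, 5′ to 3′ on the strand of the gene, with the motif or its reverse complement in capitals.
TEX101: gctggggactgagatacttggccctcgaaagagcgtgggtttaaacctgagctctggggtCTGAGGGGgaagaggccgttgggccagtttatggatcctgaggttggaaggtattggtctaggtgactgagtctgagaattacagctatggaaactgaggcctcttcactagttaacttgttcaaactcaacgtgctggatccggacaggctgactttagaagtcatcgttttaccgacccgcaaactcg
DMC1: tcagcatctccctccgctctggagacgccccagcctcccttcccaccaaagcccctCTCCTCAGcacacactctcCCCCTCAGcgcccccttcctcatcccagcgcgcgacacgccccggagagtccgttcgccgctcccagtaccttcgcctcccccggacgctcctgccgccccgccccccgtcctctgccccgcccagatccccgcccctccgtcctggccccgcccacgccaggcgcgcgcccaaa
SYCE3: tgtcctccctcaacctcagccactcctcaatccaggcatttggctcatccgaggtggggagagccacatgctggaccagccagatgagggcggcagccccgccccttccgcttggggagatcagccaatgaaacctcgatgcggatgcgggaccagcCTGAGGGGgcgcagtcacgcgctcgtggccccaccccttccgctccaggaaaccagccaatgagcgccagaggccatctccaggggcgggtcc
SGO2: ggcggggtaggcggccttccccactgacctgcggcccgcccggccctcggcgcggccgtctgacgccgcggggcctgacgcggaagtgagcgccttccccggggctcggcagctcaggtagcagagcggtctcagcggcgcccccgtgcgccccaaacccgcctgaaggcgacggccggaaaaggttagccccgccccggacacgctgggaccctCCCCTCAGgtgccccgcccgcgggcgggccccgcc
These stretches are chr6:50271480-50271729, chr5:9430986-9431235, chr5:168658-168907 and chr15:104099128-104099377, all on the plus strand. In TEX101 the match was 190 to 183 bases before the start on the other strand, in DMC1 matches began 194 and 175 bases before it on the strand of the gene, in SYCE3 the match was 93 to 86 bases before it on the other strand, and in SGO2 it was 35 to 28 bases before it. The motif was in 10 of 86 genes called higher that had such a start (11.6%), in 1 of 26 called lower (3.85%), in 797 of 10639 genes tested (7.49%) and in 1399 of all 19501 protein-coding genes (7.17%). A match describes these letters only, and RefSeq's start need not be the one used in pig testis.

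Among genes of undifferentiated spermatogonia, 2 of 17 tested were lower and 0 higher, with 5 lower and 1 higher at an unadjusted p under 0.05, and the median was -0.72. DESeq2 called 1 lower and 0 higher, and the replicate block 4 lower. UCHL1, the deubiquitinase that marks pig spermatogonia, was at 84.5, 164 and 132 CPM in the members and at 561, 606 and 518 in TEX101-negative germ cells. Every member sum was below every reference sum, and the log2 fold change was -2.27 ± 0.34 (SE, adjusted p = 6.0e-04 in edgeR). ZBTB16, a transcriptional repressor of spermatogonial stem and progenitor cells, was at 9.39, 15.4 and 14.7 against 22.6, 64.0 and 63.8, at a log2 fold change of -2.05 ± 0.50 (adjusted p = 0.037 in edgeR). This call was lost in DESeq2, by library size alone, without any 1 of the pigs and when cells with somatic markers were left out. ELAVL2, an RNA-binding protein of germ cells, was at 65.8, 328 and 192 against 249, 499 and 338 CPM and did not pass the test (log2 fold change -1.04 ± 0.39, adjusted p = 0.27 in edgeR), but was called lower with the replicate block at -1.09.

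Among genes of differentiating spermatogonia 1 of 8 tested was higher and 0 lower, with 1 and 1 at an unadjusted p under 0.05 1 and 0 in DESeq2, and 1 higher and 2 lower with the replicate block. The higher gene was SCML2, a Polycomb protein of the germline on the X chromosome, at 272, 108 and 201 CPM against 22.6, 33.1 and 42.6 (log2 fold change 2.29 ± 0.41, adjusted p = 0.0038 in edgeR). DMRT1, which holds spermatogonia back from meiosis in mouse, was at 93.9, 179 and 285 against 326, 314 and 454. The members lay below in every pig without overlap, but the log2 fold change of -1.03 ± 0.38 did not pass the test (adjusted p = 0.26 in edgeR). With the replicate block it was called lower at -1.12.

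Cell division genes were measured in both groups. None of 14 S phase genes was called by edgeR or DESeq2, with 0 higher and 6 lower at an unadjusted p under 0.05 and a median of -0.54. None of 13 mitosis genes was called by either tool, with 1 higher and 1 lower at an unadjusted p under 0.05 and a median of -0.35. With the replicate block 3 S phase genes and 1 mitosis gene were lower. The summed S phase level was 729 ± 162 CPM in the members and 1017 ± 220 in TEX101-negative germ cells (SD, n = 3).

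In the piRNA list, whose proteins silence transposons in germ cells, 1 of 17 tested was higher and 0 lower, with 2 and 1 at an unadjusted p under 0.05 and 1 and 0 in DESeq2, and 2 and 0 with the replicate block. The higher gene was TDRKH, a Tudor protein that binds PIWI proteins at mitochondria, at 84.5, 35.8 and 86.5 CPM against 13.6, 12.5 and 18.5 (log2 fold change 2.06 ± 0.46, adjusted p = 0.018 in edgeR). Of the genes of chromatin and the sex body, 1 of 10 was higher and 0 lower, with 3 and 0 at an unadjusted p under 0.05 1 and 0 in DESeq2, and 3 and 0 with the replicate block. It was SCML1, at 291, 41.0 and 136 against 36.2, 27.5 and 42.6 CPM, with a log2 fold change of 1.89 ± 0.48 (adjusted p = 0.046 in edgeR) that was not called when cells with somatic markers or doublets were left out. H2AFZ, which encodes the histone variant H2A.Z, was at 1315, 502 and 1076 against 203, 459 and 420 CPM, without overlap but also without a call (log2 fold change 1.26 ± 0.38, adjusted p = 0.12 in edgeR), and was called with the replicate block at 1.15.

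X-linked genes bear on meiosis because the X chromosome is silenced at the pachytene stage. They took 3.46%, 2.98% and 3.22% of the members' UMIs, against 2.86%, 2.79% and 2.90% in TEX101-negative germ cells. The members were higher in 3 of 3 pigs, by 0.37 percentage points on average (p = 0.1 in a two-sided exact permutation test over the sums, where 3 against 3 allow no smaller value). Cells without germ gene UMIs were at 3.89%, 4.31% and 3.96%, above the members in every pig (p = 0.1 in the same exact test). Of the called genes with a position in RefSeq, 11 of 86 higher genes (12.8%) and 2 of 26 lower genes lay on the X chromosome, against 348 of 10704 genes tested (3.25%). PIH1D3, a dynein assembly factor on the X chromosome, was at 65.8, 25.6 and 50.2 against 0, 0.859 and 2.17 CPM (log2 fold change 4.64 ± 0.65, adjusted p = 1.8e-04 in edgeR).

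The genes with the largest changes were not all in the lists. PRSS21, the serine protease testisin that is anchored at the germ cell surface, was at 272, 143 and 207 CPM in the members and at 18.1, 5.59 and 13.2 in TEX101-negative germ cells. The groups were far apart in every pig, at a log2 fold change of 4.08 ± 0.47 (adjusted p = 1.4e-05 in edgeR). TERB2, which tethers telomeres to the nuclear envelope in meiosis, had a log2 fold change of 3.74, ACHE, the acetylcholinesterase, 3.62, and SLC4A8, a bicarbonate transporter, 3.22, with adjusted p-values of 0.0035, 0.013 and 0.0073 in edgeR. The 10 lower genes with the largest changes were PGM5, WNT5A, VIPR2, DPPA5, SLC1A6, CHD5, FAM162B, MSMP, BNC2 and PIANP, with log2 fold changes from -3.35 to -2.45. All 10 had 0 UMIs in the members of pig 1, whose sum was the shallowest. BNC2, a zinc finger protein of germ cells, was at 0, 35.8 and 16.2 against 85.9, 111 and 88.4 CPM (log2 fold change -2.49 ± 0.48, adjusted p = 0.0065 in edgeR). DPPA5, known from pluripotent cells, was at 0, 15.4 and 4.63 against 49.7, 38.2 and 33.3 CPM (log2 fold change -2.75 ± 0.61, adjusted p = 0.019 in edgeR).

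The members differed among themselves with the amount of TEX101. When they were divided at TEX101 counts set after their values had been seen (2, 3 to 5, 6 to 11, and 12 or more UMIs), the classes held 9, 14, 15 and 5 cells in pig 1, 6, 3, 2 and 0 in pig 2, and 37, 30, 20 and 34 in pig 3. The values are descriptions without a test, since the classes come from the counts of the same cells. In pig 3, LY6K was at 219, 614, 1471 and 3774 CPM from the lowest class to the highest, and in pig 1 at 622, 3745, 3963 and 5155. SYCP1 is itself a gene of the choice, so its order is no separate evidence. It was at 91.6, 223, 318 and 831 in pig 3 and at 166, 402, 692 and 1208 in pig 1. HORMAD1 was highest in the class of 12 or more in both pigs, at 463 and 564 CPM. In pig 2 the 3 filled classes had LY6K at 150, 99.2 and 916 CPM and SYCP1 at 44.1, 417 and 158. Not every surface or axis gene followed this order: PRSS21 was at 125, 358, 282 and 156 CPM in pig 3. SYCP3, also a gene of the choice, was at 373, 248, 399 and 80.6 in pig 1.

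UCHL1 stood the other way. In pig 3 it was at 207, 216, 0 and 9.20 CPM over the 4 classes, and in pig 1 at 373, 0, 0 and 0. Pig 2 departed from this, with 132, 139 and 316 in its 3 filled classes of 6, 3 and 2 cells. DMRT1 in pig 3 was at 424, 398, 118 and 55.2 CPM. In pig 1, DMRT1 was at 124, 61.9, 53.2 and 242, where the last class had 5 cells. The class of 2 UMIs in pig 3 lay near TEX101-negative germ cells in DMRT1, at 424 against 454 CPM, and in ELAVL2, at 330 against 338. It differed in UCHL1, at 207 against 518, and in LY6K, at 219 against 45.1. In pigs 1 and 2 DMRT1 was lower in that class, at 124 and 194 against 325 and 314. Whether all members with 2 TEX101 UMIs are early meiotic was not tested. STRA8 was found in the lower classes, at 63.7, 118, 41.2 and 0 CPM in pig 3 and at 82.9, 61.9, 0 and 0 in pig 1, so that no member with at least 12 TEX101 UMIs had a STRA8 UMI. Median UMIs per cell were 10966, 7609.5, 7499 and 8325 over the classes of pig 3 and 2295, 2168.5, 2323 and 2551 over those of pig 1.

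**Figure D4:**
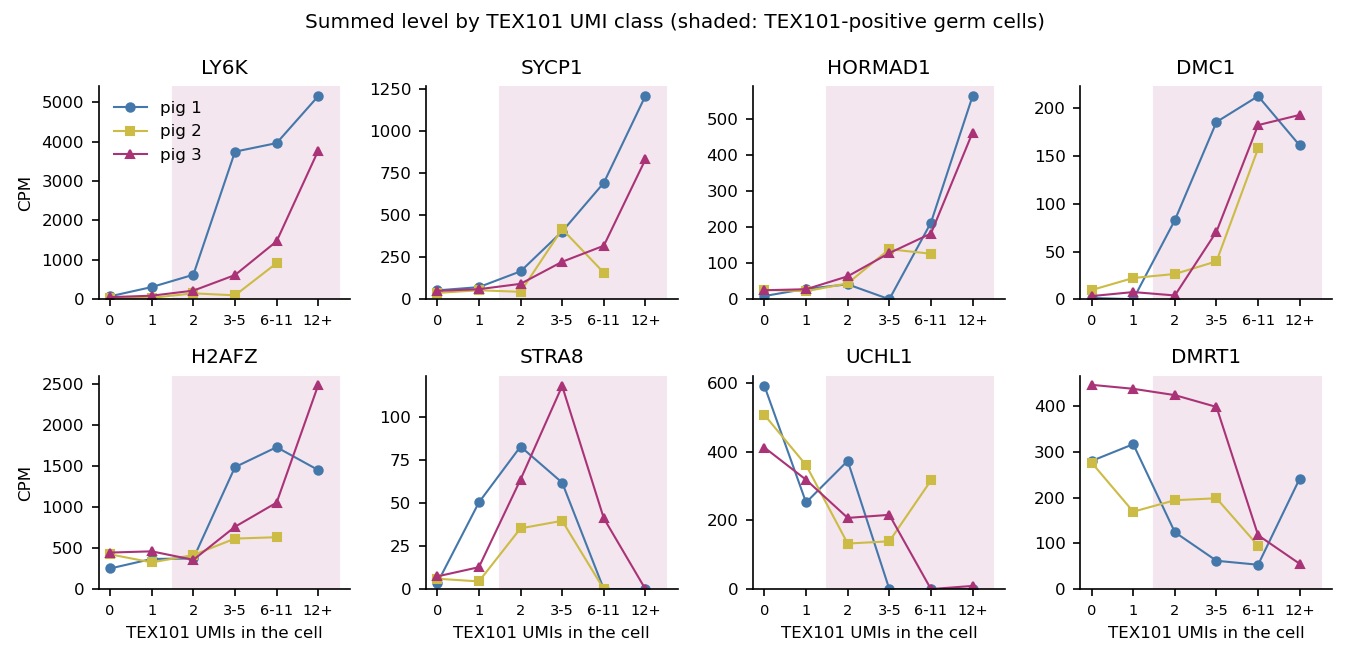
Summed level in CPM of 8 genes, by pig, in cells with a germ gene UMI divided by their TEX101 UMIs, where the shaded classes of 2 and more are the members. LY6K reaches 5155 and 3774 in the last class of pigs 1 and 3, STRA8 is at 0 there, and DMRT1 in pig 3 drops from 424 to 55.2.

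Of the genes of late spermatocytes and spermatids, some were at 0 in the members and others were detected. CLGN, a chaperone of the endoplasmic reticulum in germ cells, was at 357, 220 and 296 CPM in the members and at 199, 327 and 212 in TEX101-negative germ cells, with overlap. The list summed to 739 ± 30.8 CPM against 597 ± 195 (SD, n = 3). None of 13 tested was called against TEX101-negative germ cells by edgeR or DESeq2, with 4 higher and 0 lower at an unadjusted p under 0.05 and 3 higher with the replicate block, and the median was 0.11. PRM1, which packs sperm DNA, ACRV1 and ODF1 had 0 UMIs in the members of all 3 pigs, where 3 UMIs over the group would be 1.88 CPM. TNP1 had 5 UMIs, all in pig 3. The lactate dehydrogenase LDHC was at 47.0, 87.0 and 100.4 against 13.6, 62.7 and 27.7 CPM, without a call (log2 fold change 1.02, adjusted p = 0.37 in edgeR) except with the replicate block at 1.19.

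Of 8 germ markers outside the choice (UCHL1, ELAVL2, PIWIL2, DMRT1, TEX15, TEX14, GTSF1 and ASZ1), 160 of 175 members had at least 1. At least 2 were found in 128 members, but in only 13 of 43 in pig 1. The list summed to 733, 1219 and 1106 CPM in the members, below 1600, 2004 and 1682 in TEX101-negative germ cells. Cells without germ gene UMIs were at 316, 113 and 68.5. Some members also held UMIs of somatic markers. At least 3 markers of a somatic type were found in 12 members for Sertoli cells, 20 for Leydig cells, 35 for myoid and stromal cells, 14 for macrophages, 4 for lymphocytes, 3 for endothelial and 4 for erythroid cells. The Sertoli list summed to 2349, 2893 and 603 CPM in the members, led by CLU at 2311, 2709 and 576, against 1623, 1148 and 271 with CLU at 1532, 1050 and 218 in TEX101-negative germ cells. The members were higher in 3 of 3 pigs, and the part of Sertoli cell RNA in the other results was not tested. AARD and AMH were at 0 in all 3 member sums, but at no more than 0.732 CPM in cells without germ gene UMIs. In pig 2, DHH, INHBB and SOX9 were at 15.4, 20.5 and 108 CPM in the members against 0.430, 7.30 and 45.5 in TEX101-negative germ cells. In pigs 1 and 3 the members were not above the reference in these genes. The Leydig list summed to 1015, 143 and 333, led by INSL3 in pigs 1 and 3. The other lists summed to at most 278 in each pig, apart from the erythroid list at 748 in pig 3, where 1 member held 340 of 911 HBB UMIs. Between the members and TEX101-negative germ cells none of the genes of the 7 somatic lists was called by edgeR or DESeq2, with 3 lymphocyte genes higher at an unadjusted p under 0.05 and 1 Sertoli and 1 lymphocyte gene higher with the replicate block. Cells in which a somatic list led were also left out of both groups, a choice made after seeing the data. This took out 4, 2 and 23 members and left 47, 133 and 251 TEX101-negative germ cells. Then 107 genes were higher and 20 lower, and 104 and 19 of these were among the 117 and 33.

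TEX101 RNA was also found in cells in which a somatic list led, a group that includes some of the members. In pig 3, 10.7% of 272 cells with macrophage markers had a TEX101 UMI and 2.94% had at least 2, at a median depth of 5230.5 UMIs, and 7 of the 8 cells with at least 2 were members. In the same pig 9.94% of 322 cells with myoid and stromal markers had a TEX101 UMI, and 3.06% of 98 with Sertoli markers. In pig 2 the share was 0.263% of 1142 cells with Sertoli markers, and in pig 1 it was 1.88% of 851 with Leydig markers. Free RNA in the droplets would give TEX101 UMIs to cells that do not make it, and its part in the members with 2 TEX101 UMIs was not tested. With at least 3 TEX101 UMIs, 34, 5 and 84 cells remained, and 470 genes were higher and 429 lower than in TEX101-negative germ cells.

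Against cells without germ gene UMIs, germ cell and meiotic genes were among those higher in the members and somatic genes among those lower. That reference was chosen to lack the germ genes that members had to hold. The choice of cells thus favours this outcome, so the counts describe the groups and are no separate evidence. Of 14019 genes, 529 were higher (3.77%) and 1123 lower (8.01%), 1652 in all (11.8%), with no overlap of libraries at 2425 genes above (17.3%) and 2292 below (16.3%). This split turned with the scaling: by library size alone 1149 were higher and 611 lower, and the median log2 fold change of all genes moved from -0.38 to 0.16. With the pig as a replicate block 1208 were higher and 2923 lower, and without pig 3, which held most members, 80 and 145. With cells limited to the members' UMI range, 151 were higher and 323 lower. All 6 tested synaptonemal and axis genes were higher, as were 10 of 22 recombination genes, 7 of 15 piRNA genes and 6 of 13 genes of late spermatocytes and spermatids, and none of these lists had a lower gene in edgeR or DESeq2, which called 854 genes higher (7.24%) and 1446 lower (12.3%) of 11795. RAD51AP2 was at 132, 46.1 and 59.5 CPM in the members and at 0.732, 0.0656 and 0.270 in the other cells, the largest change of the higher genes named by rule (log2 fold change 7.60, adjusted p = 0.0046 in edgeR). SCG3, a secretogranin, was at 75.2, 46.1 and 50.2 against 1.10, 0.328 and 0.405 (log2 fold change 6.17, adjusted p = 0.0046 in edgeR). MEIOC, PRSS21, SHCBP1L and FSIP2 had log2 fold changes from 5.36 to 6.02.

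Of the somatic lists, 6 of 7 myoid and stromal genes, 4 of 5 Leydig, 4 of 8 macrophage, 2 of 7 Sertoli, 1 of 9 lymphocyte and 1 of 7 endothelial genes were lower, and 0 of 6 erythroid genes (median log2 fold change 0.81), with none higher. With cells limited to the members' UMI range, the lower calls over all lists numbered 3 in place of 21. That range kept 214, 212 and 710 cells without germ gene UMIs and 33, 9 and 97 members. A call lost with so many fewer cells does not show that the change was smaller. ACTA2, the actin of peritubular myoid cells, was at 9.39, 51.2 and 54.8 CPM against 45.8, 483 and 485. CYP17A1, the steroidogenic enzyme of Leydig cells, was at 103, 15.4 and 28.6 against 1561, 134 and 248. By fitted change, the 10 lower genes named by rule were SPP1, EVI2B, KIRREL3, CCL24, MME, FAM20C, ZNF503, TMEM176A, NRM and PATJ. All 10 had 0 UMIs in all 3 member sums, so their order is no measured ranking of changes. SPP1, a phosphoprotein of matrix and macrophages, was at 4.03, 19.8 and 73.8 CPM in the cells without germ gene UMIs, and PATJ, a polarity protein of epithelia, at 9.89, 17.97 and 6.08. The sums of pigs 1 and 2 are shallow for such levels, so no fold is given.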

How the data were processed

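Total testicular cells of 3 pigs were measured on the 10x Genomics platform, 1 library per animal. The authors deposited raw UMI counts per gene and barcode, which the submitters' processing notes and the methods credit to Cell Ranger 2.1.0 with Sscrofa11.1; no barcode under 500 UMIs is in the pig files, which name another Cell Ranger version in their headers. Barcodes were called at the 99th percentile of the 3000 largest UMI totals divided by 10, which gave minimums of 696, 2444 and 3457 UMIs. Doublets were kept, and an alternative without them used Scrublet in Scanpy 1.11.5. The members, gene lists and tests were chosen with earlier results of these data known.

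UMIs were summed per pig and group. Genes with at least 10 UMIs over the 6 sums were tested with edgeR 4.0.16 (R 4.3.3, quasi-likelihood test, TMM scaling, Benjamini-Hochberg adjustment over all genes tested), with DESeq2 1.42.0 as an alternative. Each pig gives both sums of a comparison, so the pig was a replicate block in an alternative fit: deviations of the sums of the same pig correlated at 0.215, 0.358 and 0.361 for TEX101-negative germ cells and at 0.200, 0.245 and 0.309 for cells without germ gene UMIs. Labels give pigs 2 and 3 the same testis number, and they were counted as separate animals as in the methods. Named genes were all genes of the lists and, per comparison and direction, 10 called genes. These 10 had the largest fitted change among those that held at least 50 UMIs and changed alike in all 3 pigs. On simulated counts with 200 genes changed 8-fold, edgeR recovered 83% against TEX101-negative germ cells (13232 genes, 4.05% of calls false). Against cells without germ gene UMIs it recovered 58.5% (14473 genes, 2.5% false). The changed genes had at least 50 UMIs, all genes shared a common dispersion, and sums of the same pig were not correlated. These shares thus do not describe sparser genes, smaller changes or the real sums. Leaving out cells led by somatic markers was an alternative chosen after seeing the data. Listed genes that are not in the pig table under their symbol were not analysed here. Promoter sequences are RefSeq's for Sscrofa11.1.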

Additional observations from a re-analysis of the deposited data

Results flagged for a closer look

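Barcodes that met the same conditions were found outside the comparisons. In pig 3, 124 barcodes under the minimum of 3457 UMIs held at least 2 TEX101 UMIs and a germ gene UMI, about as many as the 121 members, against 3 in pig 2 and 0 in pig 1. Their median was 1239.5 UMIs, and their sum of 168085 UMIs held LY6K at 11078 CPM, SYCP1 at 1541, SYCE3 at 238, UCHL1 at 41.6 and CLU at 910. In the cattle libraries 4 called barcodes of cattle 2 and 22 of cattle 3 met the conditions, with 3 in cattle 1, where all 10 germ genes were in the gene table. Whether these barcodes are whole cells was not tested.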

How the results depend on the processing

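Against TEX101-negative germ cells, genes higher and lower numbered 117 and 33 as reported. They numbered 201 and 71 with no filter on low counts, 386 and 419 with the pig as a replicate block, and 470 and 429 with at least 3 TEX101 UMIs in the members. Library size alone gave 15 lower, and leaving out cells led by somatic markers 20 lower. Leaving out 1 pig in turn gave 0 to 247 higher and 0 to 120 lower. Listed genes higher were 16, and 31 with the replicate block, 32 with at least 3 TEX101 UMIs and 0 to 25 with 1 pig left out. Listed genes lower were 2, and 13 with the replicate block, 13 with at least 3 TEX101 UMIs, 1 by library size alone, in DESeq2 or without somatic-marker cells, and 0 to 3 with 1 pig left out.

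Against cells without germ gene UMIs, 529 genes were higher and 1123 lower. The counts were 1149 and 611 by library size alone, 1208 and 2923 with the replicate block, and 151 and 323 in the members' UMI range. They were 80 to 409 and 145 to 819 with 1 pig left out, and DESeq2 gave 854 higher. Listed genes higher were 43, and 67, 77 and 27 under library size alone, the replicate block and the members' UMI range. Listed genes lower were 21, and 32 with no filter, 45 with the replicate block and 3 in the members' UMI range. With 1 pig left out they were 22 to 48 and 6 to 21.

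The members numbered 344 with at least 1 TEX101 UMI and 302 with a minimum of 500 UMIs. Among the genes whose fold changes are printed and BOLL, a meiotic entry gene, 2 that were not called turned direction against TEX101-negative germ cells. CLGN went from 0.08 on the log2 scale to between -0.13 and 0.50 with 1 pig left out (-0.13 without pig 1 and -0.06 without pig 3). It was at -0.24 in the members' UMI range and at -0.15 with at least 3 germ genes in the reference. BOLL went from 0.73 to between -0.68 and 1.09 with 1 pig left out, the lowest without pig 3. The causes were not tested. Pig 1 had the shallowest sums and pig 2 had 11 members, which limits the precision of both.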

Other observations

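Some genes outside the lists were named after their values were seen. ART3, an ADP-ribosyltransferase anchored at the cell surface, was at 1137, 471 and 609 CPM in the members of pigs 1, 2 and 3 and at 154, 170 and 95.8 in TEX101-negative germ cells, at a log2 fold change of 2.25 (adjusted p = 0.0017 in edgeR). MANF, a protein of the endoplasmic reticulum, was at 1494, 261 and 884 against 190, 207 and 248, at a log2 fold change of 1.87 (adjusted p = 0.026 in edgeR). SELENOS and SDF2, also of the endoplasmic reticulum, had log2 fold changes of 2.11 and 2.09 (adjusted p = 0.0049 and 0.0069 in edgeR). ARRDC5, an arrestin-domain gene of germ cells, was at or near 0 in every group, with 0 UMIs in the members of all 3 pigs, 1 UMI in TEX101-negative germ cells and 0 in cells without germ gene UMIs.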
